A study of Drosophila melanogaster with 90 samples.

Results

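Expression of 10 antimicrobial peptide genes of Drosophila melanogaster was followed across late pupae that had passed metamorphosis under altered gravity: Drs, Drsl2, Drsl3, Drsl4, Drsl5, Mtk, AttD, CecB, Def and DptB. A gene entered where the array annotation tied a probe set to its symbol and to no other, which gave 1 probe set for each, 10 of the 18769 non-control probe sets of the array and 10 of its 11982 named genes. Expression was measured on 90 Affymetrix Drosophila Genome 2 arrays, each of total RNA from a pool of whole Oregon R pupae collected just before eclosion, in 32 groups of 2 to 4 arrays. Late larvae had developed for 3.5 days at 24 °C, as the labels give it, in 1 of 3 ground based facilities or beside it. The study's methods give slightly different temperatures and times.

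In the random positioning machine (RPM), which turns the sample continuously so that the direction of gravity averages out, 0g pupae were compared with 1g pupae kept outside it. In the magnet, a superconducting levitator, 0g*, 1g* and 2g* pupae were compared with 1g pupae outside it. The asterisk marks the strong magnetic field, and 1g* is the control for the field itself. In the large diameter centrifuge (LDC) 12g, 6g and a rotational control (1g-rot) were compared with 1g pupae outside it. Each facility was run in up to 4 environments: with a cold step of 3 days at 12 °C before the exposure (ΔT, here cold), in a closed container that limits oxygen (↓O2, here closed), with both (cold closed), or with neither (unconstrained). The RPM groups were cold closed, cold and unconstrained. The magnet positions were cold closed and closed, with further open 1g controls in cold and unconstrained environments. The LDC groups covered all 4 environments. LDC arrays came from a first experiment (19 arrays) and a parallel second one (21 arrays).

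Antimicrobial peptides are mostly short secreted proteins that kill bacteria and fungi, and in the fly they are made by the fat body, blood cells and surface epithelia. Their genes are switched on by the Toll pathway, in which cleaved Spätzle (spz) activates the receptor Toll and the NF-kappaB factors Dif and Dorsal (dl), and by the Imd pathway, in which peptidoglycan recognition proteins lead to the NF-kappaB factor Relish (Rel). Drosomycin (Drs), an antifungal peptide, is the usual readout of Toll. Diptericin B (DptB) and attacin D (AttD) are linked mainly to Imd, whereas metchnikowin (Mtk), defensin (Def) and cecropin B (CecB) can answer to both. Drsl2, Drsl3, Drsl4 and Drsl5 are drosomycin-like genes that lie next to each other on chromosome arm 3L, apart from Drs on the same arm. DptB lies beside DptA, and CecB between Cec2 and CecC, so that probes of these genes may share signal with near copies.

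Array medians were 5.03 to 5.15 in the RPM arrays, 4.99 to 5.11 in the magnet arrays and 6.37 to 6.53 in the LDC arrays, so comparisons were made within a facility only. Arrays of 1 group correlated at 0.9519 to 0.9956. Groups were compared with limma, and a gene was called at a Benjamini-Hochberg adjusted p under 0.05 over all probe sets. The 5 measured pharate adult genes averaged 11.67 to 13.47 over the arrays, in log2 units. The 8 larval salivary glue genes averaged 3.45 to 6.23 in RPM arrays (median 3.74), 3.47 to 3.97 in magnet and 4.77 to 5.51 in LDC arrays. In RPM arrays Sgs5 reached 11.11 and Sgs4 8.97, while ng1, ng2 and Sgs1 stayed at 2.92, 3.79 and 3.76 or less.

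Over the 58 comparisons of pairs of groups, the 10 genes were called in 37 of 580 tests (20 higher and 17 lower), or 6.38%, against 6.51% of all tests of all probe sets. As a set they were thus called about as often as the array as a whole. The calls were uneven among the genes. Drsl4 had 11 calls (6 higher, 5 lower), Drsl3 had 9 (6 higher, 3 lower), Drsl5 had 6 (4 higher, 2 lower) and Drsl2 had 4 (3 higher, 1 lower). AttD had 3 (1 higher, 2 lower), CecB 2 and Drs 2, all lower. Def, DptB and Mtk had 0 calls by limma in the 58 comparisons.

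**Figure D1:**
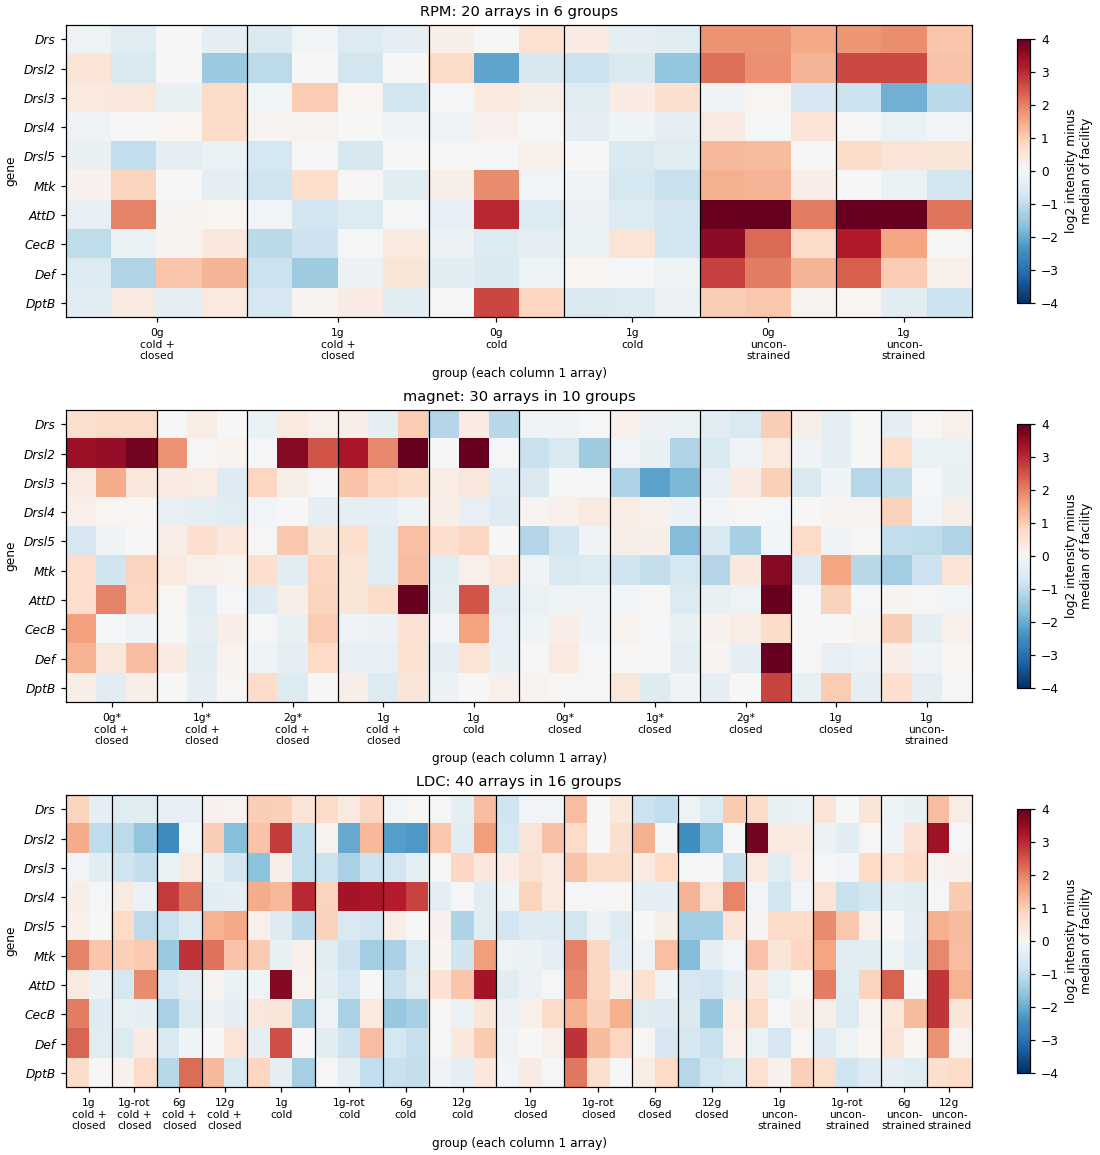
Log2 intensity of the 10 genes (down) in each of the 90 arrays (across), as the difference from the gene's median over the arrays of its facility; red is higher, blue is lower, colours end at 4 and -4, and vertical lines part the groups. Single red columns are arrays in which several peptide genes stood high together, as in the closed 2g* group of the magnet.

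Drs was the brightest of the 10, at the 97.6 to 98.7 percentile of mean log2 level among all probe sets of a facility, with 10.76 to 13.17 in RPM arrays, 9.43 to 11.60 in magnet arrays and 11.01 to 13.23 in LDC arrays. Drsl3 and Drsl5 also lay in the upper range (88.1 to 96.3 percentile). AttD and Def lay near the middle or below it (35.6 to 63.3 percentile), with AttD as low as 3.08 in the magnet. Levels of different probe sets depend on their probes as well, so these ranks place each probe set on the array and do not order the transcripts.

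These genes varied more between arrays of 1 group than most probe sets. The SD within groups of AttD was 1.12 in the RPM, 1.47 in the magnet and 1.05 in the LDC on the log2 scale, and the median SD of all probe sets was 0.173, 0.213 and 0.209 there. AttD stood at the 99.5 to 99.9 percentile of that spread. Drsl4 was the steadiest of the 10 in the RPM (SD 0.247, percentile 76.1) and in the magnet (SD 0.250, percentile 67.1), but not in the LDC (SD 0.638, percentile 97.5).

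In some groups a peptide gene stood far above the other arrays in a single array. A value at least 2 log2 units above the median of the others in its group was found 35 times in the 900 values of the 10 genes (3.89%), against 1791 of 1689210 values (0.106%) over all probe sets. Drsl2 had 12 such values, AttD 8, Mtk 5, CecB 4, Def 3 and DptB 3 of 90 arrays each, and Drs, Drsl3, Drsl4 and Drsl5 had 0. They fell on 21 of the 90 arrays, and 4 arrays carried 3 or more of them. In groups of 3 arrays or more there were 24 such values in 740 (3.24%), against 0.102% over all probe sets, and 2 arrays carried 3 or more.

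The closed 2g* group of the magnet held the clearest such array. AttD was 3.35, 3.45 and 9.30 in its replicates 1, 2 and 3, Def 4.55, 4.07 and 8.84, DptB 6.05, 6.44 and 9.11, and Mtk 6.53, 8.13 and 11.34. Replicate 3 was thus the highest of the 3 arrays in each of these genes of both pathways. Drs was also highest there (10.16, 9.99 and 11.59), as was edin (5.43, 5.64 and 10.20), an infection-induced gene that is not an antimicrobial peptide by sequence. Drsl4 was not (5.99, 6.14 and 6.02).

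The other 3 arrays with 3 or more such values were in the LDC. In cold 1g pupae AttD was 5.05, 8.89 and 5.37, Def 5.75, 8.68 and 6.12, and Drsl2 9.43, 11.09 and 7.33, so that replicate 2 stood out. The remaining groups held 2 arrays, of which it cannot be told whether 1 was high or the other low. In cold closed 1g pupae replicate 1 stood above replicate 2 in CecB (9.32 and 6.77), Def (8.43 and 5.61) and Drsl2 (9.79 and 7.30). In cold closed 6g pupae replicate 2 stood above replicate 1 in DptB (10.36 and 7.04), Mtk (11.48 and 7.09) and Drsl2 (8.18 and 5.77).

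Within groups, over the 90 arrays, DptB and Mtk moved together most closely (r = 0.82), followed by Drs with Drsl2 (0.69), CecB with Def (0.62) and AttD with Def (0.61). Drsl4 went with none of the other 9 (r from -0.16 to 0.01). The DptB and Mtk relation was 0.73 in RPM, 0.83 in magnet and 0.86 in LDC arrays, whereas AttD and Def had 0.08, 0.83 and 0.68. These are descriptions over arrays that share their groups, RNA pools and normalization.

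The RPM was used to ask whether simulated microgravity changes expression in each environment. In 0g against 1g pupae 0 of the 30 tests of the 10 genes passed limma's threshold, and 5 had an unadjusted p under 0.05. Over the 3 environments 0.00178% of the tests of all probe sets passed and 8.33% had such an unadjusted p, with 0.00533% called in unconstrained pupae. There, 8 of the 10 differences were above 0, against 49.4% of all probe sets, and their median was 0.49 against 0 over all probe sets.

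Mtk was the nearest to a call in unconstrained pupae, with 9.87, 9.82 and 8.73 in 0g and 8.48, 8.18 and 7.73 in 1g arrays, a difference of 1.34 (SE 0.47, adjusted p = 0.225). Its 0g arrays all lay above the 1g arrays. Drsl3 likewise did not overlap, with 9.77, 9.97 and 9.23 in 0g and 9.06, 7.99 and 8.83 in 1g arrays (1.03, SE 0.39, adjusted p = 0.251). DptB was 8.14, 8.23 and 7.32 in 0g and 7.24, 6.70 and 6.29 in 1g arrays (1.15, SE 0.49, adjusted p = 0.303). In these 3 of the 10 genes all 0g arrays lay above all 1g arrays, as in 8.45% of all probe sets.

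In Mtk and DptB replicate 3 was the lowest array of both groups. CecB and AttD also went with the replicate number. CecB was 10.07, 8.76 and 7.26 in 0g replicates 1 to 3 and 9.66, 8.06 and 6.52 in 1g replicates 1 to 3, and AttD was 7.96, 8.23 and 6.11 against 8.34, 8.30 and 6.16. In both genes the same-numbered 0g and 1g arrays lay close to each other and replicate 3 was low in both groups. Over all probe sets the deviations of same-numbered arrays correlated at only -0.15 to 0.23. In cold pupae the smallest adjusted p of the 10 genes was 0.998, and in cold closed pupae 0.700.

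The cold step gave all 6 calls of the peptide genes in the RPM set, 5 of them in the 1g controls outside the machine. In cold against unconstrained 1g pupae 1 of the 10 genes was higher and 4 were lower, where 13.6% of all probe sets were called. AttD was 3.80, 3.46 and 3.26 in cold and 8.34, 8.30 and 6.16 in unconstrained 1g arrays, a difference of -4.09 (SE 0.82, adjusted p = 0.0045), and no arrays overlapped. Drs was 11.65, 10.97 and 10.83 in cold against 13.10, 13.17 and 12.44 in unconstrained arrays (-1.75, SE 0.22, adjusted p = 0.000488). Drsl2 was 8.37, 8.66 and 7.67 against 11.87, 11.88 and 10.36 (-3.14, SE 0.61, adjusted p = 0.00397). These 3 genes were lower in every cold array, and the calls were kept without any 1 array. RNA was taken from whole pupae, in which fewer cells of a type and less RNA per cell cannot be told apart.

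Drsl3 went the other way, with 9.42, 10.22 and 10.55 in cold and 9.06, 7.99 and 8.83 in unconstrained 1g arrays (1.44, SE 0.39, adjusted p = 0.0215). Drsl5 was lower, with 9.98, 9.40 and 9.53 in cold and 10.72, 10.52 and 10.48 in unconstrained arrays (-0.94, adjusted p = 0.0387). Neither overlapped, but both calls rested on single arrays. The Drsl3 call was lost without unconstrained replicate 2, cold replicate 2 or cold replicate 3 (adjusted p = 0.123, 0.0722 and 0.105). The Drsl5 call was lost without unconstrained replicate 1 or 2 or cold replicate 2 or 3 (adjusted p = 0.135, 0.102, 0.133 and 0.121). Neighbouring drosomycin-like genes thus moved in opposite directions in the same arrays.

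In 0g pupae the same step lowered Drs, with 11.55, 11.34 and 11.92 in cold and 13.13, 13.11 and 12.84 in unconstrained arrays (-1.42, SE 0.22, adjusted p = 0.00876), the 1 call of the 10 genes where 1.43% of all probe sets were called. The call was lost without cold replicate 2 (-1.29, adjusted p = 0.0806). AttD was 3.68, 7.04 and 3.48 in cold 0g arrays, of which replicate 2 also held high DptB (7.09, 9.83 and 8.01) and Mtk (8.69, 10.36 and 8.35).

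**Figure D2:**
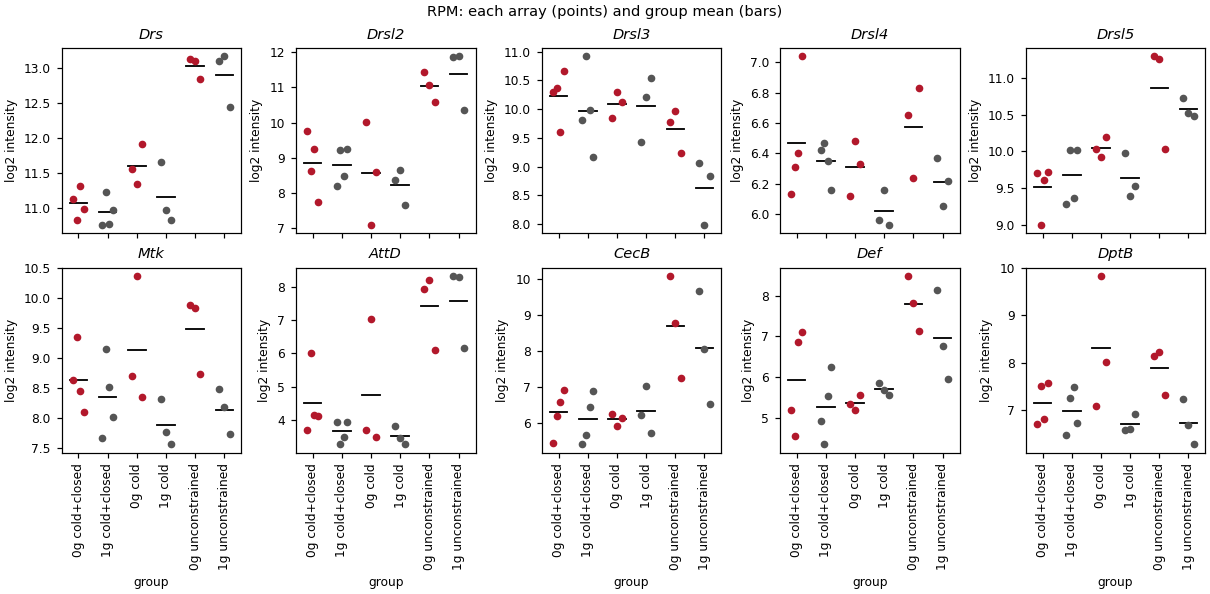
Log2 intensity of the 10 genes in the 20 RPM arrays; points are arrays (red 0g, grey 1g), bars group means, and each panel has its own axis. Drs was 12.44 or more in the 6 unconstrained arrays and 11.92 or less in the 14 others.

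Some components of both pathways were lower in the same cold 1g pupae, where 13.6% of all probe sets were called. Of the 20 probe sets of the Toll pathway (17 genes) 8 were lower and 1 higher. The lower ones included spz (-2.03, adjusted p = 0.000813), the receptor's ligand, and the kinase pll (-1.51). They also included 1 probe set each of the factor dl (-1.74) and the inhibitor cact (-0.93). Another probe set of dl ranged only from 6.93 to 7.68 over the 20 RPM arrays, and another of cact from 6.84 to 7.55. SPE, the protease that cleaves Spätzle, was higher (1.13). Of the 20 genes of the Imd pathway 5 were lower and 0 higher, led by Rel (-1.77, adjusted p = 0.000488), with PGRP-SC2 (-0.95), PGRP-LF (-0.87) and ben (-0.68). In 0g pupae 4 Toll pathway probe sets and 3 Imd pathway genes were lower and 0 higher, Rel among them (-1.46), where 1.43% of all probe sets were called.

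Markers of stage and tissue moved in the same comparison. Of the 5 pharate adult markers 4 were higher in cold 1g pupae, with list means of 12.34 to 12.39 in cold and 11.67 to 12.24 in unconstrained arrays. Of the 7 fat body markers 3 were lower and 0 higher (8.66 to 8.89 in cold, 8.87 to 9.11 in unconstrained arrays). Of the 15 probe sets of hemocyte markers 1 was higher and 1 lower (5.62 to 5.70 in cold, 5.64 to 5.74 in unconstrained arrays). Their part in the peptide results was not tested.

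In the magnet, levitation and its control positions were compared with closed 1g pupae outside the bore. The 10 genes were called in 0 of 60 such tests (6 at an unadjusted p under 0.05), and of the tests of all probe sets 0.178% passed and 5.07% had such an unadjusted p. Between positions inside the magnet 1 of 60 tests passed, Drsl3 in closed 2g* against closed 1g* pupae, where 3.36% of all probe sets were called. Drsl3 was 7.98, 8.61 and 9.24 in 2g* and 7.07, 6.14 and 6.49 in 1g* arrays, a difference of 2.04 (SE 0.36, adjusted p = 0.00111), with no overlap and no loss of the call without any 1 array. Against closed 1g pupae outside the magnet (7.72, 8.12 and 7.15) the 1g* arrays lay below and the 2g* arrays overlapped. In that 2g* against 1g* comparison 13 of the 14 male accessory gland genes were lower (list means 4.91 to 5.75 in 2g*, 7.18 to 8.29 in 1g* arrays), and their part in the Drsl3 difference was not tested.

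Drsl2, lower after the cold step in the open RPM controls, was called higher after it in closed 1g and 0g* pupae of the magnet set. It was not called in 1g* pupae (means 6.07 in cold closed and 4.86 in closed arrays) or in 2g* pupae (7.44 and 5.28). In the 1g controls Drsl2 was 8.66, 7.32 and 10.84 in cold closed and 5.26, 5.01 and 5.41 in closed arrays, a difference of 3.71 (SE 0.98, adjusted p = 0.0104) with no overlap, where 16.9% of all probe sets were called. Without cold closed replicate 3, which also had AttD at 8.33 (4.13 and 4.38 in the others), it was 2.76 (adjusted p = 0.0792). In 0g* pupae Drsl2 was 8.83, 8.92 and 9.24 in cold closed and 4.50, 4.80 and 3.97 in closed arrays (4.57, SE 0.98, adjusted p = 0.00516, with 5.94% of all probe sets called), the largest called difference of the 10 genes in the series. The call was kept without any 1 array. The difference between the facilities was not tested.

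Drsl3 was also higher after the cold step. In 1g controls it was 9.44, 9.14 and 9.03 in cold closed and 7.72, 8.12 and 7.15 in closed arrays (1.54, SE 0.36, adjusted p = 0.00387). In 1g* pupae it was 8.61, 8.60 and 7.79 in cold closed and 7.07, 6.14 and 6.49 in closed arrays (1.77, adjusted p = 0.000664, with 23.9% of all probe sets called). Neither pair of groups overlapped, and both calls were kept without any 1 array. In 2g* pupae, where 8.36% of all probe sets were called, 0 of the 10 genes were.

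In open 1g controls of the magnet, where 21.8% of all probe sets were called, Drsl5 was 10.33, 10.47 and 9.62 in cold and 8.66, 8.64 and 8.46 in unconstrained arrays (1.55, SE 0.45, adjusted p = 0.0141). The groups did not overlap, and the call was lost without cold replicate 2 (1.39, adjusted p = 0.0649), the array in which Drsl2 stood at 10.39 against 5.39 and 5.33. Drsl4 was 6.37, 5.77 and 5.58 in cold and 7.04, 5.99 and 6.34 in unconstrained arrays, a difference of -0.55 (adjusted p = 0.0474) between overlapping groups. That call lay at the threshold and was lost in 24 of the 30 fits that each left out 1 array. Without unconstrained replicate 1 the difference was -0.26 (adjusted p = 0.387). All 14 male accessory gland genes were lower in these cold 1g pupae (3.56 to 3.80 in cold, 6.05 to 7.72 in unconstrained arrays) and in cold closed against closed 1g pupae (4.08 to 4.78 in cold closed, 6.88 to 7.14 in closed arrays). Their part in the peptide results was not tested.

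**Figure D3:**
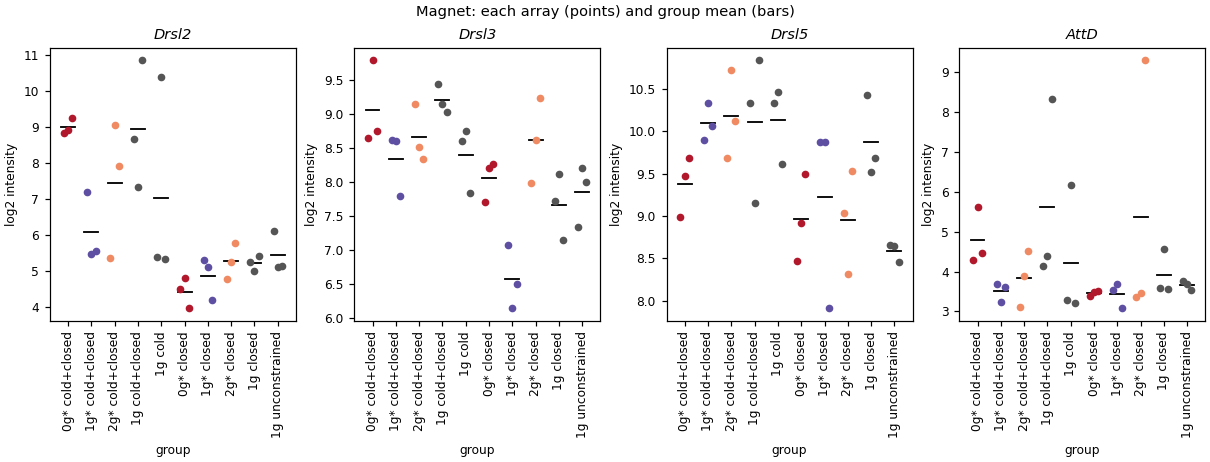
Log2 intensity of Drsl2, Drsl3, Drsl5 and AttD in the 30 magnet arrays; points are arrays (red 0g*, violet 1g*, orange 2g*, grey 1g), bars group means. In Drsl2 the 3 cold closed 0g* arrays (8.83 to 9.24) lie above the 3 closed 0g* arrays (3.97 to 4.80), and in AttD single arrays lie far from their groups (9.30 and 8.33).

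In the LDC, Drsl4 stood apart from the other 9 genes. Its group means were 10.55 ± 0.33 in cold 6g, 10.12 ± 0.44 in cold closed 6g, 10.12 ± 1.39 in cold 1g-rot and 9.57 ± 0.92 in cold 1g pupae (SD, n = 2, 2, 3 and 3 arrays). Closed 12g pupae followed at 8.91 ± 0.71 (n = 3), and the other 11 groups lay between 7.20 and 8.13. Each group overlapped its neighbours in this order, and the 4 highest all overlapped each other. By group means Drsl4 was thus high after the cold step at 1g, 1g-rot and 6g in open containers, and at 6g also in closed ones. In closed containers, all 6g arrays came from the second experiment and all 1g and 1g-rot arrays from the first.

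At 12g this height was not seen. In cold pupae Drsl4 was 7.25, 7.57 and 7.17 in 12g and 9.12, 8.97 and 10.63 in 1g arrays, a difference of -2.24 (SE 0.49, adjusted p = 0.00618) with no overlap, where 10.8% of all probe sets were called. Against cold 6g arrays (10.78 and 10.32) the 12g arrays were lower by 3.22 (difference -3.22, SE 0.55, adjusted p = 0.00025), where 43% of all probe sets were called. In cold closed pupae it was 7.20 and 7.26 in 12g and 10.43 and 9.81 in 6g arrays (-2.89, SE 0.60, adjusted p = 0.00413, with 7.71% called). All the 12g arrays with a cold step lay below all the 1g and 6g arrays they were set against.

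The limits of these calls differ. Without cold 1g replicate 3 the difference of Drsl4 in cold 12g against 1g pupae was -1.71 (adjusted p = 0.066), and with a term for the second LDC experiment it was -2.0 (adjusted p = 0.0262). Cold 12g arrays came from the first experiment and cold 6g arrays from the second, so 12g against 6g and the experiment cannot be told apart there. With the term for the experiment, which the 1g and 1g-rot groups carry, that difference was -2.86 (adjusted p = 0.00416). The cold closed 12g and 6g arrays were all of the second experiment, and that call was lost without 6g replicate 1 (-2.58, adjusted p = 0.104).

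In closed containers without a cold step Drsl4 was higher at 12g than at 6g. It was 8.99, 8.17 and 9.58 in 12g and 7.28 and 7.24 in 6g arrays, a difference of 1.65 (adjusted p = 0.0469, with 12.5% of all probe sets called), with no overlap. This call lay at the threshold and was lost in 24 of the 40 fits that each left out 1 array. With the groups split by experiment, which left the same arrays in the comparison and the same difference of 1.65, its adjusted p was 0.00411. In unconstrained pupae Drsl4 was 7.59 and 8.67 in 12g against 7.52, 6.89 and 7.51 in 1g arrays, and was not called. The difference of 12g from 1g was -2.24 in cold and 0.82 in unconstrained pupae (interaction -3.07, SE 0.74, adjusted p = 0.0214, with 3.35% of all probe sets called), the 1 call among the 140 interaction tests of the 10 genes. It was lost without unconstrained 12g replicate 2, unconstrained 1g replicate 2 or cold 1g replicate 3 (adjusted p = 0.219, 0.0616 and 0.0794). The 12g arrays of both environments came from the first experiment and 2 of the 3 1g arrays in each from the second. Within the first experiment alone, with 1 1g array in each environment, the interaction was -2.4 (adjusted p = 0.0927).

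The effect of the cold step on Drsl4 was compared at each gravity, with some of the same arrays. In 1g pupae Drsl4 was 9.12, 8.97 and 10.63 in cold and 7.52, 6.89 and 7.51 in unconstrained arrays (2.27, SE 0.49, adjusted p = 0.00157, with 16% of all probe sets called), and the second experiment alone gave 2.60. In 1g-rot pupae it was 8.51, 10.96 and 10.88 in cold and 8.16, 6.75 and 6.91 in unconstrained arrays (2.84, adjusted p = 0.000161, with 20.4% called). The second experiment alone gave 4.09 for 1g-rot, whereas the arrays of the first experiment, replicate 1 of each group, were 8.51 and 8.16. In 6g pupae it was 10.78 and 10.32 in cold and 7.23 and 7.16 in unconstrained arrays (3.36, SE 0.60, adjusted p = 0.000168, with 22.8% called). None of these groups overlapped, and these 3 calls were kept without any 1 array.

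In closed containers the cold step raised Drsl4 at 6g, with 10.43 and 9.81 in cold closed and 7.28 and 7.24 in closed arrays (2.86, adjusted p = 0.00105, with 16% of all probe sets called), a call kept without any 1 array. In closed containers at 1g and 1g-rot it gave no call, with differences of -0.28 (7.87 and 7.59 in cold closed, 7.47, 8.52 and 8.03 in closed 1g arrays) and 0.09 (7.99 and 7.40 in cold closed, 7.59, 7.54 and 7.67 in closed 1g-rot arrays). These 1g and 1g-rot arrays were of the first experiment and the 6g arrays of the second, so gravity and experiment cannot be told apart here. At 12g the step gave no call of Drsl4, where 0.597% of all probe sets were called in open and 1.57% in closed containers, although all cold arrays lay below the others. Drsl4 was 7.20 and 7.26 in cold closed and 8.99, 8.17 and 9.58 in closed 12g arrays (-1.68, SE 0.55, adjusted p = 0.121), and with the groups split by experiment, which left the same arrays in the comparison, the adjusted p was 0.0161. Cold closed 6g against cold closed 1g pupae differed by 2.39 (SE 0.60, adjusted p = 0.018, with 6.4% called), but the 6g and 1g arrays belonged to different experiments, which cannot be told apart from gravity, and the call was lost without 6g replicate 1, 1g replicate 1 or 1g replicate 2 (adjusted p = 0.237, 0.0684 and 0.149). In 1g-rot pupae Drsl4 was 7.99 and 7.40 in cold closed and 8.51, 10.96 and 10.88 in cold arrays (-2.42, adjusted p = 0.00327, with 28.7% called). Within the first experiment alone that difference was -0.82 (adjusted p = 0.509).

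**Figure D4:**
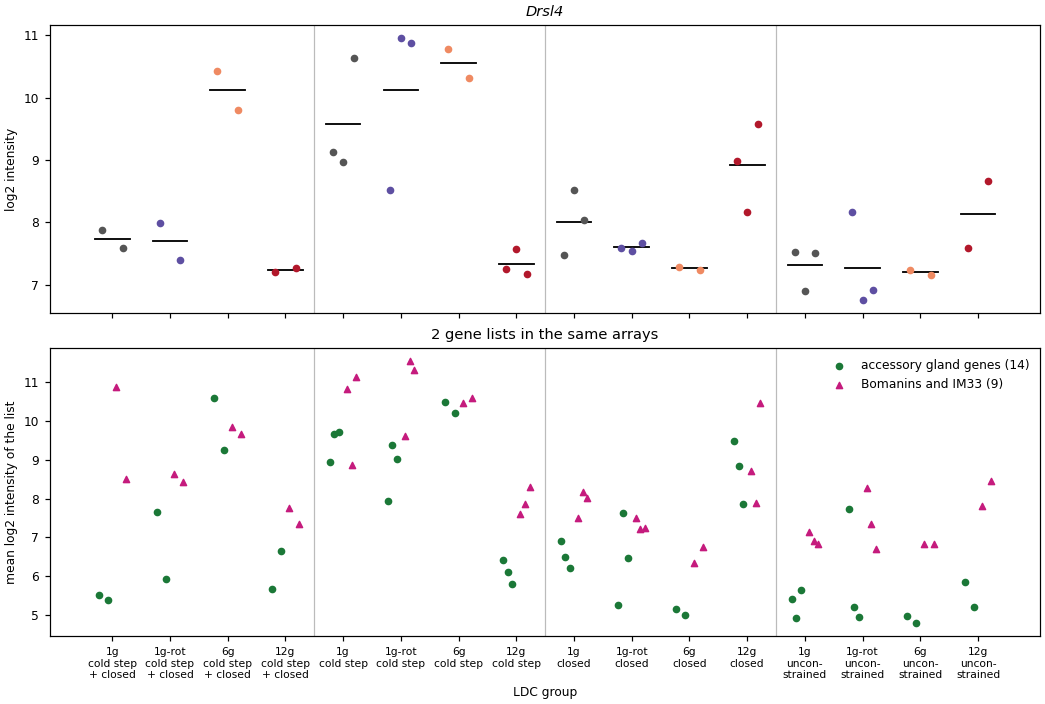
Upper panel, log2 intensity of Drsl4 in the 40 LDC arrays (points; grey 1g, violet 1g-rot, orange 6g, red 12g) with group means (bars), by environment and gravity; lower panel, mean log2 intensity of 14 male accessory gland genes (green circles) and of 9 Bomanins and other immune induced genes (pink triangles) in the same arrays. The cold 6g arrays (10.78 and 10.32) and cold closed 6g arrays (10.43 and 9.81) lie high, and the 5 12g arrays with a cold step lie at 7.17 to 7.57.

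A list of male accessory gland genes, which encode seminal fluid proteins, moved with Drsl4 over the LDC groups. The labels give no sex for the pooled pupae. Of its 14 genes 13 were lower in cold 12g against cold 1g pupae (list means 5.79 to 6.42 in 12g, 8.95 to 9.71 in 1g arrays) and 13 in cold 12g against cold 6g pupae (10.19 to 10.49 in 6g arrays). After the cold step 13 were higher at 1g (4.92 to 5.64 in unconstrained arrays) and 13 at 6g (4.79 to 4.98 in unconstrained arrays). In closed pupae 13 were higher in 12g than in 6g arrays (7.87 to 9.49 in 12g, 5.0 to 5.15 in 6g). Over the 16 LDC group means Drsl4 followed the mean of this male accessory gland list with r = 0.94, but within groups, over 40 arrays, with r = 0.41. Over 10 magnet groups r was 0.76 and over 6 RPM groups -0.36. The part of these genes in the Drsl4 result was not tested.

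Other lists were compared with Drsl4 as well. The 9 measured genes of the list Bomanins and immune induced molecules, most of which encode short Toll-dependent peptides of the hemolymph, were all higher in cold 1g pupae of the LDC (8.86 to 11.14 in cold, 6.84 to 7.13 in unconstrained arrays), and 8 of 9 were lower in cold 12g than in cold 1g pupae (7.61 to 8.31 in 12g arrays). Their mean followed Drsl4 with r = 0.88 over groups and 0.72 within groups. The 11 midgut markers had r = 0.84 over groups and 0.82 within groups, the fat body markers 0.68 and 0.79, and the pharate adult markers -0.03 and 0.14. Over LDC groups r was also 0.64 for the Imd pathway, 0.48 for the Toll pathway and -0.65 for hemocyte markers. Over 10 magnet groups it was 0.9 for midgut markers, -0.74 for fat body markers and 0.36 for the Bomanin list. Over 6 RPM groups r was 0.4, 0.44 and 0.64 in the same order. The fat body list includes the yolk protein genes Yp1, Yp2 and Yp3, and Yp2 ranged from 5.43 to 13.42 in LDC arrays. Within groups, over the 90 arrays of the series, Yp2 alone had r = 0.821 with Drsl4. In cold 12g against 1g pupae 2 of 11 midgut markers were lower (6.88 to 7.04 in 12g, 6.96 to 8.83 in 1g arrays) and 0 of 7 fat body markers were called (9.60 to 9.97 in 12g, 10.35 to 11.06 in 1g arrays). Of the 20 probe sets of the Toll pathway 3 were lower there and of the 20 genes of the Imd pathway 2, with 0 higher in both, shares near the 10.8% of all probe sets called. The part of these lists in the Drsl4 result was not tested.

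The remaining LDC calls were spread over the other genes, and most rested on single arrays. In cold pupae Drsl3 was 11.07, 11.83 and 11.43 in 12g and 9.37, 11.28 and 10.02 in 1g arrays (1.22, SE 0.34, adjusted p = 0.0229), with overlap. The call was lost without 12g replicate 2, 1g replicate 1 or 1g replicate 3 (adjusted p = 0.107, 0.0995 and 0.103). Against cold 6g arrays (10.26 and 10.62) Drsl3 at 12g was higher by 1.00 (adjusted p = 0.0334), AttD was 5.81, 6.33 and 8.57 in 12g and 4.33 and 4.74 in 6g arrays (2.37, adjusted p = 0.0373), and Drsl2 was 9.39, 7.86 and 9.96 in 12g and 6.09 and 6.00 in 6g arrays (3.03, adjusted p = 0.0416). With a term for the experiment the adjusted p was 0.126 for AttD and 0.31 for Drsl2. Without 6g replicate 1 it was 0.198 for Drsl3, 0.165 for AttD and 0.136 for Drsl2, without 6g replicate 2 it was 0.0733, 0.104 and 0.148, and without 12g replicate 3 it was 0.0535, 0.18 and 0.11. Drsl3 was also lost without 12g replicate 2 (0.122) and Drsl2 without 12g replicate 1 (0.0995).

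Drsl5 was high in cold closed 12g pupae, with 11.15 and 11.31. It was 8.87 and 9.20 in cold closed 6g arrays (2.20, SE 0.60, adjusted p = 0.023), 9.92, 8.53 and 9.28 in cold 12g arrays (1.99, adjusted p = 0.0216, with 12.9% of all probe sets called) and 8.41, 8.39 and 10.29 in closed 12g arrays (2.20, adjusted p = 0.0366, with 1.57% called). The cold closed 12g arrays lay above all of these. The first call was lost without any 1 of its 4 arrays (adjusted p = 0.0619 to 0.205), the second without cold replicate 2 or either cold closed array (0.0881, 0.0807 and 0.116), and the third without closed replicate 1 or 2 or either cold closed array (0.139, 0.122, 0.132 and 0.295). Cold and cold closed 12g arrays came from different experiments, and with a term for the experiment the second difference was 2.79 (adjusted p = 0.00493).

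**Figure D5:**
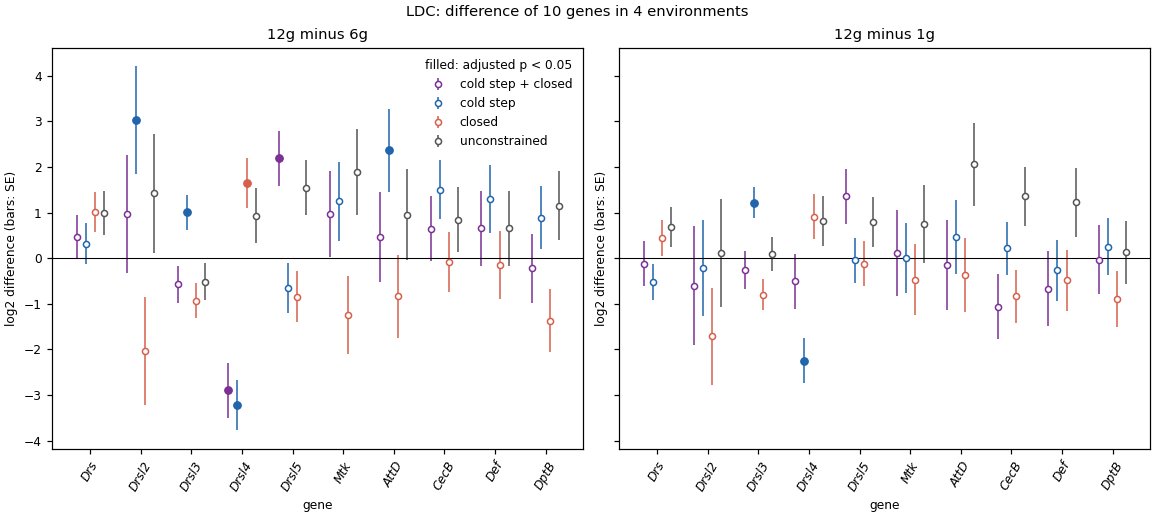
Log2 difference of the 10 genes in the LDC, 12g minus 6g (left) and 12g minus 1g (right), in 4 environments (colours); points are limma estimates, bars their SE, and filled points have an adjusted p under 0.05. Drsl4 is lower at 12g than at 6g after a cold step, open (-3.22) and closed (-2.89), and higher in closed pupae without it (1.65).

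Drsl3 was lower after the cold step at 6g and in the rotational control of the LDC, although it was higher after it in RPM and magnet 1g controls. The difference between the facilities was not tested. In LDC 1g controls Drsl3 had means of 10.22 in cold and 11.08 in unconstrained pupae, and 10.75 in cold closed and 11.45 in closed pupae. At 12g Drsl3 had 11.44 in cold and 11.17 in unconstrained pupae, and 10.49 in cold closed and 10.65 in closed pupae. It was not called in these 1g and 12g comparisons. In 1g-rot pupae Drsl3 was 10.23 and 10.05 in cold closed and 12.16, 11.76 and 11.76 in closed arrays (-1.75, SE 0.38, adjusted p = 0.00683, with 3.32% of all probe sets called), lost without either cold closed array (adjusted p = 0.0826 and 0.0788). In open containers it was 10.17, 9.72 and 10.17 in cold and 10.96, 10.90 and 11.81 in unconstrained 1g-rot arrays (-1.20, adjusted p = 0.0116), lost without unconstrained replicate 3 or cold replicate 2 (0.0945 and 0.0577). At 6g it was 10.26 and 10.62 in cold and 11.57 and 11.79 in unconstrained arrays (-1.24, adjusted p = 0.0286), lost without any 1 of the 4 arrays (0.0563 to 0.208). The groups of these called comparisons did not overlap. In the same 6g pupae CecB was 5.77 and 5.94 in cold and 7.69 and 8.55 in unconstrained arrays (-2.27, adjusted p = 0.0213), and the call was lost without unconstrained replicate 2, cold replicate 1 or cold replicate 2 (0.206, 0.123 and 0.0721).

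Closed against open containers gave 0 calls in 50 tests in 1g controls (5 at an unadjusted p under 0.05), where 1.82% of the tests of all probe sets passed and 13.1% had such an unadjusted p. At 12g, where 23.4% were called, 3 genes were lower in closed than in unconstrained pupae. AttD was 4.56, 4.46 and 4.85 in closed and 8.09 and 6.61 in unconstrained arrays (-2.73, adjusted p = 0.0325), CecB 6.71, 5.76 and 7.59 against 10.15 and 7.77 (-2.27, adjusted p = 0.0163), and Drsl5 8.41, 8.39 and 10.29 against 11.17 and 11.04 (-2.08, adjusted p = 0.0114). No arrays overlapped. The closed and the unconstrained 12g arrays came from different experiments, which cannot be told apart from the container. With a term for the experiment the adjusted p was 0.0983, 0.132 and 0.156. Without unconstrained replicate 1 it was 0.269 for AttD, 0.365 for CecB and 0.0663 for Drsl5, without closed replicate 2 it was 0.0788, 0.079 and 0.0528, and without closed replicate 1 it was 0.0809 for AttD and 0.0588 for Drsl5.

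Unconstrained 12g pupae had 0 of 10 genes called against 1g, where 0.149% of all probe sets were called, but all 10 differences were above 0, against 58.3% of all probe sets, with a median of 0.77 against 0.05. In 5 of the 10 genes both 12g arrays lay above all the 1g arrays, against 15.7% of all probe sets. Both 12g arrays came from the first experiment and 2 of the 3 1g arrays from the second. With a term for the experiment 8 of the 10 differences were above 0 (54.1% of all probe sets), with a median of 0.335 against 0.02, and DptB (-0.51) and Drsl2 (-0.58) were below 0. Within the first experiment alone 8 were above 0 (56.4% of all probe sets), and Drsl2 (-2.19) and Drsl3 (-0.24) were below. The smallest adjusted p was 0.29. In the other environments the 12g differences above 0 numbered 5 in cold (median -0.02), 2 in closed (-0.48) and 2 in cold closed pupae (-0.21). Medians over all probe sets were 0.05, -0.09 and -0.03 there. The rotational control had 0 of 40 tests called against 1g (2 at an unadjusted p under 0.05), where 0.0186% of the tests of all probe sets passed and 6.76% had such an unadjusted p. Its differences were above 0 in 9 genes in closed pupae (median 0.87, against 0.01 over all probe sets). In unconstrained, cold and cold closed pupae 5, 2 and 2 were above 0 (medians 0.01, -0.2 and -0.59).

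The genes with patterns most like each member were found over the 32 group means, after subtraction of the facility mean. For Drsl4 they were CG10513 (r = 0.967), CG17752 (0.966) and CG14400 (0.966). For Drs they were Rel (0.878), the NF-kappaB factor of the Imd pathway, CAH2 (0.873) and CG9733 (0.869). Both DptB (0.778) and Mtk (0.767) had edin first. Drsl5 had the fat body protein genes Fbp2 (0.897) and Fbp1 (0.876), and Drsl2 had CG13482 (0.914). CecB had CG14244 (0.886) and Spn27A (0.864), a serpin that holds back the melanization cascade, AttD had CG10182 (0.838), Drsl3 had CG17839 (0.797) and Def had CG6426 (0.750). Within groups, over the 90 arrays, edin had r = 0.702 with AttD, 0.701 with DptB and 0.707 with Mtk, and Drsl4 had zetaTry (0.840), a trypsin. These are descriptions over groups that share arrays and normalization.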

How the data were processed

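Expression values of 90 arrays were used as deposited: the authors made log2 values with RMA, per the labels, with 2 decimals (versions not given in the sources used here). Of the 18952 probe sets 183 controls were left out. Of the 18769 others 13647 had 1 gene symbol in the platform annotation, 402 several and 4720 none, and 13544 matched the gene table of the Release 6 assembly. Groups came from the labels, and the LDC experiment from the study's methods. Each facility was fitted apart with limma 3.58.1 (R 4.3.3; lmFit and eBayes, two-sided, tested on simulated data) over all its groups, with Benjamini-Hochberg adjustment over all probe sets within a comparison. Differences are log2, tested minus control. Titles call arrays biological replicates; p-values measure the spread between pools. No term for replicates was used, since same-numbered arrays deviated together in every pair only in a few comparisons. Named genes were the members, up to 4 called genes per list and comparison by smallest p, and the 3 genes most like each member. Members, lists and tests were chosen with earlier results of these data known. Of the 58 comparisons, 17 were added after values were seen. Alternatives covered the threshold, normalization, dim probe sets, variance model, groups in the fit, blocks, experiment and single arrays.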

Additional observations from a re-analysis of the deposited data

Results flagged for a closer look

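Drsl5 in cold closed 0g pupae of the RPM had 1 array below the others: 9.01 in replicate 2, against 9.71, 9.62 and 9.72 in replicates 1, 3 and 4. Its gap to the nearest array, 0.859 of the range of the group, passed Dixon's critical value. The check covered 20 combinations of gene and group, and chance gives such a value in about 1 of 20 groups.

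Drsl4 differed between environments in its 12g against 1g difference in the LDC. The difference was lower in cold than in unconstrained pupae by 3.07 (interaction -3.07, SE 0.74, limma adjusted p = 0.0214). Within the first LDC experiment alone, with 1 1g array in each environment, it was -2.4 (adjusted p = 0.0927).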

How the results depend on the processing

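No called difference of the 10 genes turned its sign under any alternative run for it. Of the LDC differences that were not called, 35 of 385 turned with a term for the experiment and 31 of 274 within 1 experiment. With an unadjusted p under 0.001 in place of the adjusted p, calls numbered 1 for 12g against 1g (2 in the main setting), 2 between magnet positions (1), 2 for 12g against 6g (7), 6 for the cold step in 1g controls (10) and 2 for closed against open in altered gravity (5). With only the groups compared in the fit they numbered 1 for 12g against 1g, 2 for 6g against 1g (1), 2 between magnet positions, 13 for 12g against 6g, 18 for the cold step in altered gravity (11), 0 for closed against open in altered gravity and 2 interactions (1). Without the probe sets below the median level, which removed AttD and Def in magnet and LDC, closed against open 1g controls gave 1 call (0). A term for the experiment gave 0 for 6g against 1g and 3 for closed against open in altered gravity, and arrays of 1 experiment alone gave 0 for closed against open in altered gravity (1 over the 5 comparisons that could be fitted) and 0 interactions (1 over 10). Another quantile normalization, median centring and another variance model moved no count by over 1.5 times.

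With the letter of the array name as a replicate block calls numbered 0 for 12g against 1g (2 over the 3 comparisons that could be paired), 0 for 12g against 6g (4 over 2) and 0 interactions (1 over 11). With the title number as a replicate block they numbered 6 for 12g against 6g and 2 for 12g against 1g. The letter paired all arrays (correlations over 0.1 in 3 pairs or more) only in unconstrained 1g-rot against 1g pupae (0.21 to 0.58), cold closed 2g* against 1g* pupae (0.24 to 0.36) and the cold step in LDC 1g and 1g-rot pupae (0.25 to 0.32 and 0.21 to 0.36).

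Without single arrays the calls ranged from 0 to 3 for 12g against 1g, 3 to 8 for 12g against 6g, 0 to 2 for 6g against 1g, 1 to 2 between magnet positions, 0 to 2 for closed against open 1g controls, 2 to 8 for closed against open in altered gravity, 8 to 11 for the cold step in 1g controls, 9 to 14 for it in altered gravity, 0 to 2 interactions and 0 to 1 for 1g-rot against 1g. RPM and magnet positions against 1g stayed at 0. Groups of 2 or 3 arrays limit every call, and arrays give no depth.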
